A study of Mus musculus with 2 samples.

Results

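The genes described here are 30 mouse genes of cholesterol synthesis, its regulation, and the transfer, export and storage of sterols. They were chosen by symbol from a fixed list, with no measured value in the rule but with earlier results of these data known. All 30 were found among the 33938 genes of the deposited tables. The list holds 18 synthesis enzymes, 5 regulators, 2 genes of sterol transfer and phosphatidate metabolism, and 5 genes of export and storage. RNA was measured in nuclei from dissected neocortex of mouse embryos, with the droplet-based 10x Genomics chemistry that counts each captured molecule once through a unique molecular identifier (UMI). There are 2 libraries. One carries the genotype label MEN1-F/F and the other MEN1-NCKO, and both are labelled as cortex. The sources used here do not give the embryonic age, how many embryos went into a library, the Cre line or which stretch of Men1 was deleted. Each label has a single library and so no replicate spread: every difference below is one between these 2 libraries, and no test was made. Levels are UMIs of a gene summed over the nuclei of a class, per 1000000 UMIs of that class (CPM). Intervals are 95% intervals for counting error only. A log2 ratio is log2((CPM + 5)/(CPM + 5)), and the fold used for counts is a log2 ratio at or beyond 0.5 in size for a gene with at least 50 UMIs over the 2 sums compared.

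Cholesterol is made from acetyl-CoA. The mevalonate arm makes isoprenoid units and joins them to farnesyl diphosphate, the next enzymes make squalene and close it to lanosterol, and the last enzymes turn lanosterol into cholesterol. The transcription factor SREBP2 drives most of these genes together. Its precursor is escorted by SCAP and held back in the endoplasmic reticulum by the INSIG proteins when sterols are plentiful. The brain makes its own cholesterol because lipoproteins of the blood do not cross the blood-brain barrier, and astrocytes pass sterol to neurons on particles that carry apolipoprotein E.

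The promoters of 6 members are shown because the differences below turn on these genes: 4 enzymes with several NF-Y boxes, the enzyme Pmvk, which went the other way between the libraries, and the sterol exporter Abca1. Each run is the stretch of 250 bases before the annotated start, written 5′ to 3′ on the gene's strand, from RefSeq (GRCm38.p6). Capitals mark the sterol regulatory element TCACNCCAC, the E-box CACGTG, both bound by SREBP proteins, and the NF-Y box CCAAT, each searched on both strands, so that CCAAT reads ATTGG on the other strand.
Hmgcs1 (chr13:119690101-119690350, plus strand): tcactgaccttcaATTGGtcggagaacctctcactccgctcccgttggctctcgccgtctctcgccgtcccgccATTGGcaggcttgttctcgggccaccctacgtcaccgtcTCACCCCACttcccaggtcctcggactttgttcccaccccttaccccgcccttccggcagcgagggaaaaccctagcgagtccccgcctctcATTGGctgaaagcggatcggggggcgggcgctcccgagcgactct
Mvk (chr5:114444019-114444268, plus strand): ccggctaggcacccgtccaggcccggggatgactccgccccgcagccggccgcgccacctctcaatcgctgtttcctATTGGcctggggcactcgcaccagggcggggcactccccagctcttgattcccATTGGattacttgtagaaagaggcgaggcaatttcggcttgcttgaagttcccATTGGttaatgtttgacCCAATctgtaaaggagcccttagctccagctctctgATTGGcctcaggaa
Msmo1 (chr8:64733579-64733828, minus strand): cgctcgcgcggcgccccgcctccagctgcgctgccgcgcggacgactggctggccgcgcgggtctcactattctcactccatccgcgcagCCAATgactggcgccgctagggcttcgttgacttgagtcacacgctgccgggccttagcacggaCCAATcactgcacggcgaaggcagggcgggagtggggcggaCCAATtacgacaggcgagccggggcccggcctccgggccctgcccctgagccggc
Nsdhl (chrX:72918271-72918520, plus strand): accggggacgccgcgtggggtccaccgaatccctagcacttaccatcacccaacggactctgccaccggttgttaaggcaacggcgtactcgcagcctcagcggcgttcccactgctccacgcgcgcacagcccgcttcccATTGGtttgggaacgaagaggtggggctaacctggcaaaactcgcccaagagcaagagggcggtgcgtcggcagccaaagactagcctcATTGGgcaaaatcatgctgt
Pmvk (chr3:89454291-89454540, plus strand): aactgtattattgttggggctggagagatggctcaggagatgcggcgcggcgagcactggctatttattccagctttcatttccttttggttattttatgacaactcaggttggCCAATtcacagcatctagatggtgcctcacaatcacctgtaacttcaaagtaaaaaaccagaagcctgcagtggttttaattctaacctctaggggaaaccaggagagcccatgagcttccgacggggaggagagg
Abca1 (chr4:53159896-53160145, minus strand): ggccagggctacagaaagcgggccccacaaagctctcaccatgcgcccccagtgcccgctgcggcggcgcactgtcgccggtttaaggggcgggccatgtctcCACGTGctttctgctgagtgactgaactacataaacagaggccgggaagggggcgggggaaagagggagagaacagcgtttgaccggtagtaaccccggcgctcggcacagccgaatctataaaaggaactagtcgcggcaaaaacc
Windows of 300 bases, 250 before to 50 after the start, were at hand for 25 members, 15 of them enzymes. CCAAT was found in 14 of the 15 enzymes, against 37.4% of all 32851 windows and 41.1% of all 27025 genes in the table. The exception was Acat2. Of these enzymes, 9 had at least 2 such boxes in a window, against 11.7% of windows, and the share of genes was not counted. The sterol regulatory element as written was found only in Hmgcs1 among the members, and in 1.24% of all windows and 1.44% of all genes. CACGTG was found in 3 of the 15 enzymes, against 7.15% of windows and 8.09% of genes. GGGCGG, the Sp1 box, was found in 14 of the 15, against 35.7% of windows and 38.2% of genes. No 2 different motifs overlapped in a member's window. Abca1 and Apoe had no CCAAT in their windows. Fdps, Fdft1, Sqle, Stard4 and Abcg1 were not matched. Pmvk has another annotated start, whose window (chr3:89459321-89459620) held none of these motifs. A match is a description of letters and not of binding. Whether the number of boxes goes with the differences below was not tested.

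After filtering, 6130 nuclei with 26740080 UMIs were kept from the F/F-labelled library and 9807 with 41437331 from the NCKO-labelled library, with medians of 3668.5 and 3579 UMIs. The libraries shared 15 cell barcodes. Men1 itself was at 10.6 CPM (283 UMIs) in the F/F-labelled and 13.4 CPM (556 UMIs) in the NCKO-labelled library. It was not lower under the NCKO label. UMIs from the 3′ end of nuclear RNA check a deletion only where it removes the counted part, and the libraries are called by their labels throughout. Nuclei were clustered without the cholesterol genes and named by marker genes: 37 of 54 clusters got a name, and 28.4% and 31.3% of nuclei stayed unnamed. In the 10 classes compared, at least 5 of the 5 to 12 markers of each class were higher than in the rest of the nuclei in both libraries. Although the tissue is labelled cortex, 659 and 981 nuclei carried markers of striatal or LGE-derived neurons. Excitatory-like nuclei (migrating, upper-layer, layer 5, layer 6, subplate) numbered 2191 and 3188, interneuron-like nuclei 884 and 1407, and glial-like nuclei (astrocyte, oligodendrocyte precursor, radial glia) 349 and 640.

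Of the 10 classes compared, astrocyte-like nuclei had the highest summed level of the synthesis enzymes. It was 1480.4 CPM (1371 to 1596) for the F/F label and 1621 CPM (1534 to 1711) for the NCKO label. Within these 10, upper-layer-like nuclei followed with 858 and 1031 CPM, then layer 5-like nuclei with 799 and 959.8 CPM. Migrating excitatory neuron-like nuclei had the lowest sum of the 10 in both libraries, 393 CPM (341 to 450) and 512 CPM (454 to 574). In the F/F-labelled library the MGE-derived and CGE-derived interneuron-like nuclei (from the medial and caudal ganglionic eminence) came next, at 476 and 481 CPM. In the NCKO-labelled library they were at 596 and 646 CPM, with striatal or LGE-derived neuron-like nuclei between them at 630 CPM. Classes with too few nuclei to be compared lay outside this order: radial glia-like nuclei (57 and 62) had sums of 1148 and 1041 CPM, and pericyte or meningeal-like nuclei (33 and 77) 312 and 447 CPM. Gene by gene, 15 of the 18 enzymes in the F/F-labelled library and 16 of 18 in the NCKO-labelled library were highest in the astrocyte-like class of the 10 compared. The exceptions were Mvd, higher in upper-layer-like nuclei in both libraries, Ebp, and, in the F/F-labelled library, Pmvk. This ranking used no minimum of UMIs, and the share of all genes highest in astrocyte-like nuclei was not counted. Abundant enzymes weigh most in such sums. Astrocyte-like nuclei were shallower than most neuronal classes, with medians of 2350.5 and 2132 UMIs. Radial glia was the second-best class of every astrocyte-like cluster by mean log2 marker score. The scores, astrocyte against radial glia, were 2.32 and 2.13, 2.89 and 1.69, and 2.08 and 1.75. The first of these clusters held 58.5% and 53.1% of the class in the F/F- and NCKO-labelled libraries. So the class is not cleanly parted from radial glia, and where astrocytes are named below, this class is meant.

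**Figure D1:**
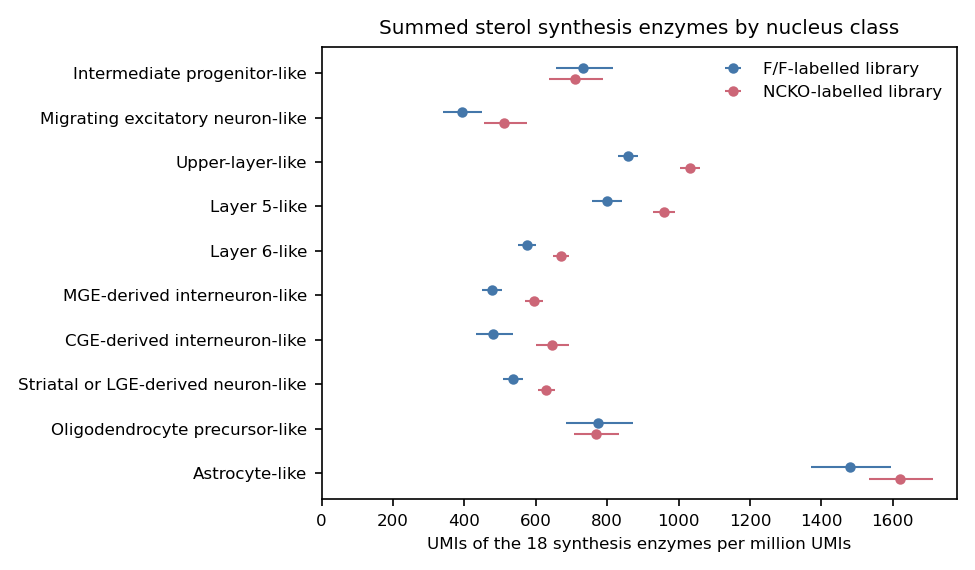
Summed level of the 18 synthesis enzymes (CPM) in the 10 nucleus classes compared, one point per library with its 95% counting interval. Astrocyte-like nuclei stand at 1480.4 and 1621 CPM and migrating excitatory neuron-like nuclei at 393 and 512 CPM.

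Between interneuron-like and excitatory-like nuclei, 6 of 30 members were lower in interneurons by the fold in both libraries, where 7.21% of all genes were, and 0 were higher in both, where 6.22% were. The 6 were the enzymes Fdps, Fdft1, Sqle, Msmo1 and Nsdhl and the regulator Insig1. Within each library, 17 of the 18 enzymes had a log2 ratio below 0, the exception being Pmvk in the F/F-labelled and Ebp in the NCKO-labelled library. Of all genes, 61.6% in the F/F-labelled and 62.2% in the NCKO-labelled library had a log2 ratio above 0. Msmo1, a sterol methyl oxidase, was at 42.0 CPM in interneuron-like and 86.5 CPM in excitatory-like nuclei of the F/F-labelled library, a ratio of 0.485 (0.401 to 0.583), and at 64.6 and 109 CPM in the NCKO-labelled library, a ratio of 0.591 (0.522 to 0.667). Sqle, the squalene epoxidase and a rate-limiting step, was at 41.7 and 71.3 CPM in the first and at 57.9 and 91.9 CPM in the second.

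Glial-like nuclei were above excitatory-like nuclei by the fold in both libraries for 11 of the 29 members measured in both (23.5% of all genes were), and 0 members were lower (15% of all genes were). The 11 were the enzymes Mvk, Msmo1, Nsdhl, Hsd17b7 and Dhcr7, the regulators Insig1 and Srebf1, the sterol carrier Stard4, and Abca1, Apoe and Soat1. Over interneuron-like nuclei, 15 of the 22 members measured were higher in glia in both libraries (20.2% of all genes) and 0 were lower (15.4% of all genes). That count held 10 of the 13 enzymes measured. The 2 enzymes with a log2 ratio below 0 between glia and excitatory-like nuclei in both libraries were Mvd and Ebp.

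**Figure D2:**
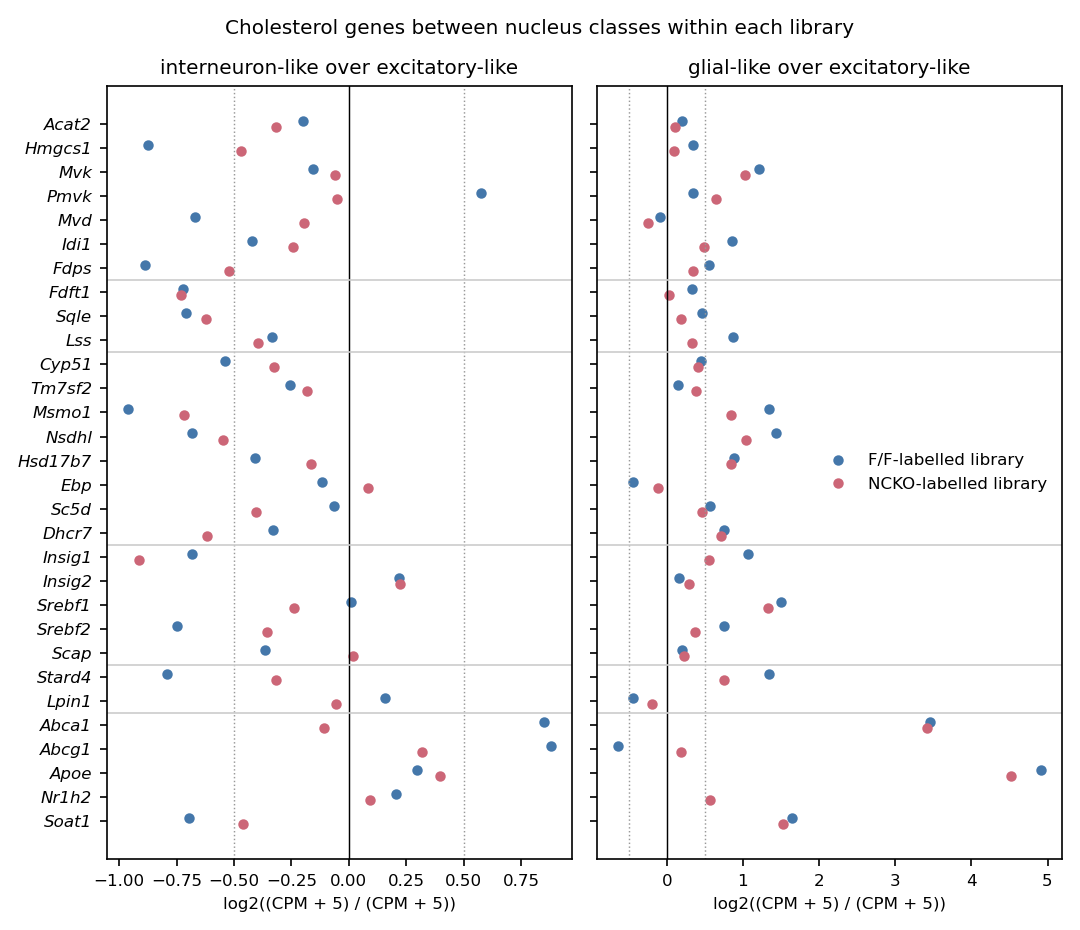
Log2 ratios of each gene between interneuron-like and excitatory-like nuclei (left) and between glial-like and excitatory-like nuclei (right), one point per library; dotted lines mark the fold of 0.5 and grey lines part the steps of the pathway, from the mevalonate arm at the top to export and storage at the bottom. Most enzymes lie left of 0 in the left panel and right of 0 in the right panel, and Abca1 and Apoe lie beyond 3 on the right.

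The mevalonate arm was led in glia by Mvk, the mevalonate kinase. It was at 20.4 CPM in glial-like and 5.97 CPM in excitatory-like nuclei of the F/F-labelled library and at 21.3 and 7.88 CPM in the NCKO-labelled library, ratios of 3.41 (1.98 to 5.66) and 2.71 (1.84 to 3.91). Hmgcs1, which makes HMG-CoA, was at 176 CPM in astrocyte-like nuclei of both libraries and between 50.5 and 90.1 CPM in the 2 interneuron-like classes. Fdps, the farnesyl diphosphate synthase, was at 82.6 and 94.8 CPM in astrocytes and at 19.4 and 34.0 CPM in interneuron-like nuclei. Idi1, the isopentenyl diphosphate isomerase, was at 30.4 and 26.2 CPM in astrocytes. Acat2, which condenses acetyl-CoA, was at 40.8 and 45.4 CPM in glial-like, 34.9 and 41.5 CPM in excitatory-like and 29.7 and 32.3 CPM in interneuron-like nuclei. Mvd, the diphosphomevalonate decarboxylase, was at 10.7 and 10.4 CPM in glia and at 11.7 and 13.2 CPM in excitatory-like nuclei.

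Of the 3 genes that make squalene and lanosterol, none passed the fold between glia and excitatory-like nuclei in both libraries, and all 3 passed it between glia and interneurons. Fdft1, the squalene synthase, was at 133 and 132 CPM in astrocyte-like nuclei, at 93.9 and 98.5 CPM in excitatory-like and at 54.9 and 57.3 CPM in interneuron-like nuclei. Lss, the lanosterol synthase, was at 54.3 and 52.4 CPM in astrocytes and at 14.9 and 17.6 CPM in interneurons. Fdft1 overlaps Ctsb on the opposite strand, and the sources used here do not say whether the counting used strand.

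After lanosterol, Msmo1 and Nsdhl, which act in turn to remove methyl groups from the sterol ring, differed most between classes. Msmo1 was at 287 CPM in astrocyte-like nuclei of both libraries, and the glial over interneuron ratio was 5.41 (4.35 to 6.76) and 3.11 (2.67 to 3.63). Nsdhl was at 51.5 and 50.8 CPM in glial-like, 16.0 and 22.2 CPM in excitatory-like and 8.07 and 13.6 CPM in interneuron-like nuclei. Dhcr7, the last reductase of one branch, was at 43.7 CPM in glial-like nuclei of both libraries against 18.1 and 14.5 CPM in interneurons. Hsd17b7, the sterol ketone reductase, was at 22.3 and 27.9 CPM in glia and at 9.80 and 13.3 CPM in excitatory-like nuclei. Cyp51, the lanosterol demethylase, was at 149.5 and 167 CPM in glial-like nuclei and 73.0 and 98.2 CPM in interneurons. It overlaps Akap9 on the opposite strand, a gene with more UMIs in the deposited tables than the 8768 of Cyp51. Sc5d, a sterol desaturase, was at 89.1 and 131 CPM in astrocytes, and Tm7sf2, a sterol reductase that overlaps Vps51 on the same strand, at 39.1 and 43.7 CPM. Ebp, the sterol isomerase, was low in every class compared, from 0 to 12.5 CPM.

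Among the regulators, Srebf1 and Insig1 passed the fold between glia and excitatory-like nuclei in both libraries, and Srebf2, Scap and Insig2 did not. Srebf1, which encodes the SREBP1 proteins that also drive fatty acid genes, was at 26.2 and 23.0 CPM in glial-like and 6.07 and 6.09 CPM in excitatory-like nuclei, ratios of 4.32 (2.65 to 6.86) and 3.77 (2.56 to 5.48). It overlaps Rai1 on the opposite strand. Insig1, itself a target of SREBP, was at 77.7 and 53.6 CPM in glia, 34.6 and 34.9 CPM in excitatory-like and 19.7 and 16.2 CPM in interneuron-like nuclei. Insig2 was instead highest in striatal or LGE-derived neuron-like nuclei, at 79.2 and 80.7 CPM, against 29.4 to 66.4 CPM in the other 9 classes. Srebf2 was at 222 and 206 CPM in astrocytes and at 133 and 134 CPM in excitatory-like nuclei. Scap was between 21.1 and 59.9 CPM in the 10 classes.

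Of the 5 export and storage genes, Abca1, Apoe and Soat1 passed the fold between glia and excitatory-like nuclei in both libraries, and 0 passed it between interneurons and excitatory-like nuclei in both. Apoe, the apolipoprotein that carries sterol in brain lipoproteins, was at 576 and 530 CPM in astrocyte-like nuclei and at 6.16 and 6.92 CPM in excitatory-like nuclei. Abca1, which loads cholesterol onto apolipoproteins, was at 248 and 236 CPM in astrocytes, at 134 and 201 CPM in intermediate progenitor-like and at 132 and 117 CPM in migrating excitatory neuron-like nuclei. It was at 1.53 and 2.11 CPM in upper-layer-like, 1.16 and 2.57 CPM in layer 5-like and 4.33 and 3.44 CPM in layer 6-like nuclei. So Abca1 was high in the earliest excitatory classes and low in all 3 layered ones, in both libraries, without overlap. Apoe did not follow it into migrating neurons, where it was at 13.2 and 10.8 CPM. Soat1, which esterifies cholesterol for storage, was at 104 and 98.6 CPM in astrocytes, 81.7 and 80.1 CPM in intermediate progenitors, 45.4 and 34.1 CPM in migrating neurons and 12.3 and 14.0 CPM in upper-layer-like nuclei. One cluster of the intermediate progenitor-like class, with 85 and 100 nuclei, also carried radial glia markers. It held 41 of the 46 and 62 of the 78 Apoe UMIs of the class, at 173 and 248 CPM.

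**Figure D3:**
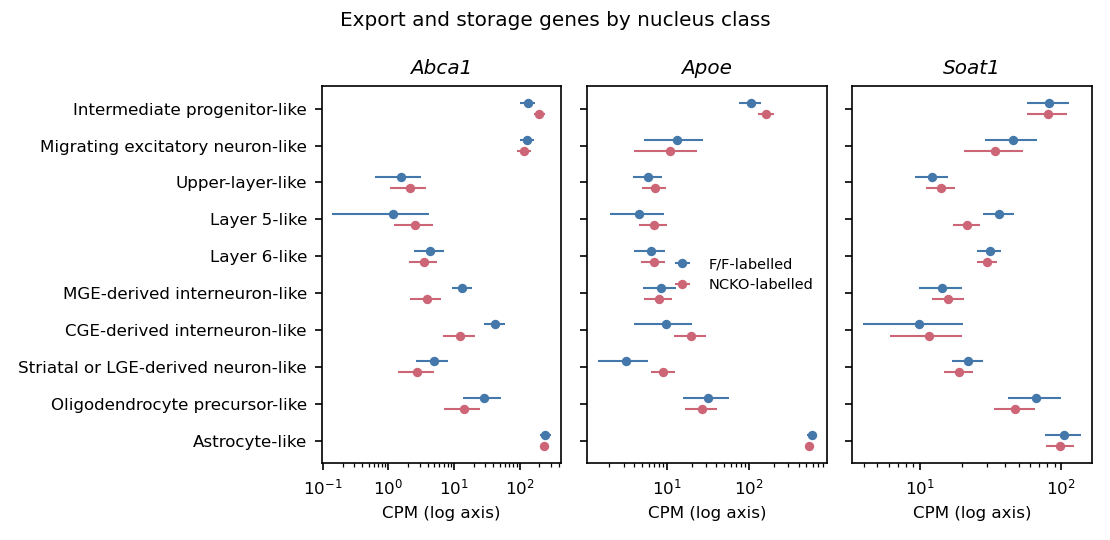
Levels of Abca1, Apoe and Soat1 in the 10 classes (CPM on a log axis), one point per library with its 95% counting interval. Abca1 is above 100 CPM in astrocyte-like, intermediate progenitor-like and migrating neuron-like nuclei of both libraries and below 5 CPM in the 3 layered classes.

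Shares of nuclei put Abca1 in the same order of classes. At least 1 UMI was found in 42.0% (34.7 to 49.7, exact binomial) and 36.6% (31.5 to 41.9) of astrocyte-like nuclei and in 23.0% (17.6 to 29.2) and 19.6% (14.7 to 25.2) of migrating neuron-like nuclei. Upper-layer-like nuclei were taken as the comparison for free RNA, which was not itself measured. There Abca1 was found in 0.689% and 0.947% of nuclei. These nuclei are deeper, with medians of 3910.5 and 3825.5 UMIs against 2248 and 2098 in migrating neurons. Thinned to 1000 UMIs a nucleus, the shares were 19.4% and 18.3% in astrocytes, 11.2% and 7.73% in migrating neurons and 0.394% and 0.344% in upper-layer-like nuclei, with 1 and 6, 2 and 2, and 0 and 0 shallower nuclei left out. Apoe gave 63.1% and 57.7% in astrocytes (33.7% and 38.1% thinned), 2.76% and 2.13% in migrating neurons (0.465% and 1.29% thinned) and 2.56% and 3.10% in upper-layer-like nuclei (0.394% and 0.775% thinned). The Apoe shares in migrating neurons were thus near those in upper-layer-like nuclei, and whether they come from free RNA was not tested. The few microglia- or macrophage-like nuclei, 21 and 43, held Apoe at 2977 and 2720 CPM and Abca1 at 1009 and 1031 CPM.

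Abcg1, a transporter that works with Abca1, had another pattern, with 36.3 and 36.8 CPM in striatal or LGE-derived neuron-like nuclei and 4.35 and 6.24 CPM in astrocytes. Nr1h2, one of the sterol-sensing liver X receptors that drive export genes, was low in every class compared, from 1.89 to 18.2 CPM. Stard4, which carries sterol between membranes, was at 31.1 and 21.9 CPM in glia against 9.24 and 10.9 CPM in excitatory-like nuclei. Lpin1, a phosphatidate phosphatase, went the other way at 23.3 and 25.1 CPM in glia and 33.6 and 29.4 CPM in excitatory-like nuclei, a difference under the fold.

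Between the libraries, the synthesis enzymes were higher in the NCKO-labelled library by a small step that recurred over the neuronal classes. Over all nuclei their sum was 689 CPM in the F/F-labelled and 804 CPM in the NCKO-labelled library, a ratio of 1.17 (1.15 to 1.19). Of the 30 members, 24 had a log2 ratio above 0, where 54.8% of all genes did, and the median was 0.12 against 0.02 over all genes. The fold was passed by 0 members upwards, where 0.827% of genes passed it, and by 0 downwards, where 1.24% did. The median was 0.24 in the mevalonate arm, 0.11 in squalene and lanosterol, 0.19 after lanosterol, 0.02 in the regulators and 0.10 in export and storage. It was -0.07 in the pair Stard4 and Lpin1, whose sum was 45.1 and 40.1 CPM, a ratio of 0.890 (0.826 to 0.959). Mvk had the highest log2 ratio at 0.36 (5.87 to 8.91 CPM), then Msmo1 at 0.33 (80.7 to 103 CPM), Fdps at 0.33 (36.4 to 46.9 CPM) and Sqle at 0.32 (63.4 to 80.3 CPM). Lpin1 was lowest at -0.22 (35.2 to 29.5 CPM), then Pmvk at -0.15 (19.2 to 16.9 CPM). The median mitochondrial share moved with the labels too, 0.154% against 0.180% of UMIs, and its part in the result was not tested.

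In excitatory-like nuclei 25 of 30 members had a log2 ratio above 0 (54.6% of all genes), 17 of them enzymes, and again 0 passed the fold upwards (1.27% of genes) or downwards (2.67%). The enzymes' sum was 732 and 869 CPM, a ratio of 1.19 (1.15 to 1.22). Nsdhl was at 16.0 and 22.2 CPM, a ratio of 1.39 (1.16 to 1.68), and Sqle at 71.3 and 91.9 CPM, a ratio of 1.29 (1.18 to 1.41). The regulators hardly differed: Srebf2 was at 133 and 134 CPM, Insig1 at 34.6 and 34.9 CPM, and Srebf1 at 6.07 and 6.09 CPM. In upper-layer-like nuclei 2 of 28 measured members were past the fold upwards (3.72% of genes). They were Sc5d at 46.8 and 69.7 CPM (214 and 363 UMIs), a ratio of 1.49 (1.25 to 1.77), and Stard4 at 8.32 and 14.2 CPM, a ratio of 1.71 (1.14 to 2.60). With predicted doublets kept, their log2 ratios of 0.53 were 0.43 and 0.32. In layer 5-like nuclei 1 of 25 measured members was past the fold downwards (4.06% of genes). This was Soat1, at 36.5 and 21.6 CPM, a ratio of 0.592 (0.422 to 0.834). Among migrating neuron-like nuclei 2 of 7 measured members were past the fold upwards (10% of genes). Srebf2 was at 81.3 and 122 CPM, a log2 ratio of 0.56 (interval of the ratio 1.01 to 2.25), and Sqle at 35.9 and 57.4 CPM, with an interval of 0.879 to 2.99. The log2 ratio of Srebf2 was 0.28 with predicted doublets kept.

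In interneuron-like nuclei more members passed the fold between the libraries than in excitatory-like or glial-like nuclei. Of the 27 members measured there, 20 had a log2 ratio above 0 (53.4% of all genes). Past the fold were 8 upwards (3.96% of genes) and 3 downwards (3.26%). The 8 were Hmgcs1, Mvd, Idi1 and Fdps of the mevalonate arm, Msmo1, Nsdhl and Hsd17b7 after lanosterol, and Scap. The enzymes' sum was 478 CPM (1479 UMIs) in the F/F-labelled and 607 CPM (2895 UMIs) in the NCKO-labelled library, a ratio of 1.27 (1.19 to 1.35). Hmgcs1 was at 55.5 CPM (172 UMIs) and 89.4 CPM (426 UMIs), a ratio of 1.61 (1.35 to 1.93). Fdps was at 19.4 and 34.0 CPM, a ratio of 1.75 (1.30 to 2.40), and Msmo1 at 42.0 and 64.6 CPM, a ratio of 1.54 (1.25 to 1.90). Mvd, Idi1, Nsdhl and Hsd17b7 rested on 17 to 25 UMIs in the F/F-labelled library, and their intervals ran from 1.01 to 3.67. Scap was at 27.8 and 42.4 CPM, a ratio of 1.53 (1.18 to 1.99). Srebf2, under the fold, was at 76.9 and 104 CPM, a ratio of 1.35 (1.16 to 1.58). Sc5d at 45.2 and 44.1 CPM and Fdft1 at 54.9 and 57.3 CPM did not follow. The count of 8 was 1 with a pseudocount of 20 CPM, 4 with a minimum of 100 UMIs, and 5 after thinning to 1000 UMIs or with predicted doublets kept.

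Pmvk, the phosphomevalonate kinase, Abca1 and Abcg1 were lower in the NCKO-labelled interneuron-like nuclei, Abcg1 through the MGE-derived class. Pmvk was at 29.4 CPM (91 UMIs) and 14.9 CPM (71 UMIs), a ratio of 0.507 (0.366 to 0.699), so that 1 kinase of the mevalonate arm was opposite to its neighbours Mvd and Idi1. Its CPM was lower in all 6 interneuron-like clusters, but the interval left out 1 in 1 of them, and 1 CGE-derived cluster had 2 UMIs in each library. Its log2 ratio of -0.79 was -0.46 with predicted doublets kept. Abca1 was at 20.02 CPM (62 UMIs) and 5.88 CPM (28 UMIs), a ratio of 0.293 (0.181 to 0.466). Abcg1 was at 28.7 CPM (89 UMIs) and 17.8 CPM (85 UMIs), a ratio of 0.621 (0.456 to 0.845). In CGE-derived nuclei Abcg1 was not lower, at 18.2 and 21.3 CPM (13 and 24 UMIs). Abca1 was under the minimum of 50 UMIs in the MGE-derived and in the CGE-derived class taken alone. Its CPM was lower in the MGE-derived class, at 13.4 and 3.84 CPM, and in the CGE-derived class, at 42.1 and 12.5 CPM. In the MGE-derived class 24 of its 32 UMIs in the F/F-labelled library came from 1 cluster, which made up 36.5% of that class's nuclei there and 25.6% in the NCKO-labelled library. Within this cluster it was at 43.4 and 15.3 CPM, a ratio of 0.352 (0.137 to 0.810). Both CGE-derived clusters gave lower values as well. They were 31.4 and 10.5 CPM in one (18 and 10 UMIs) and 86.7 and 23.6 CPM in the other (12 and 4 UMIs). At least 1 Abca1 UMI was found in 4.91% and 1.32% of MGE-derived nuclei (2.46% and 0.711% thinned to 1000 UMIs) and in 9.89% and 3.10% of CGE-derived nuclei (4.55% and 1.95% thinned, with 9 and 10 shallower nuclei left out), against 0.689% and 0.947% in upper-layer-like nuclei. The 7 astrocyte markers summed to 85.9 and 84.6 CPM in interneuron-like nuclei, with 5 of them higher in the NCKO-labelled library, Aqp4 and Gfap at 0 in the F/F-labelled library and Aqp4 at 0 in the other. By class the sum was 79.3 and 63.4 CPM in MGE-derived nuclei (3 of 7 higher) and 108 and 153 CPM in CGE-derived nuclei (6 of 7 higher). The 6 markers of migrating excitatory neurons summed to 1197 and 2097 CPM, and 4 of them were higher in the NCKO-labelled library. Unc5d, the most abundant, was at 941 and 1813 CPM, making up most of each sum. The 5 oligodendrocyte precursor markers summed to 4.20 and 10.3 CPM, all higher in the NCKO-labelled library. The part of these in the result was not tested.

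**Figure D4:**
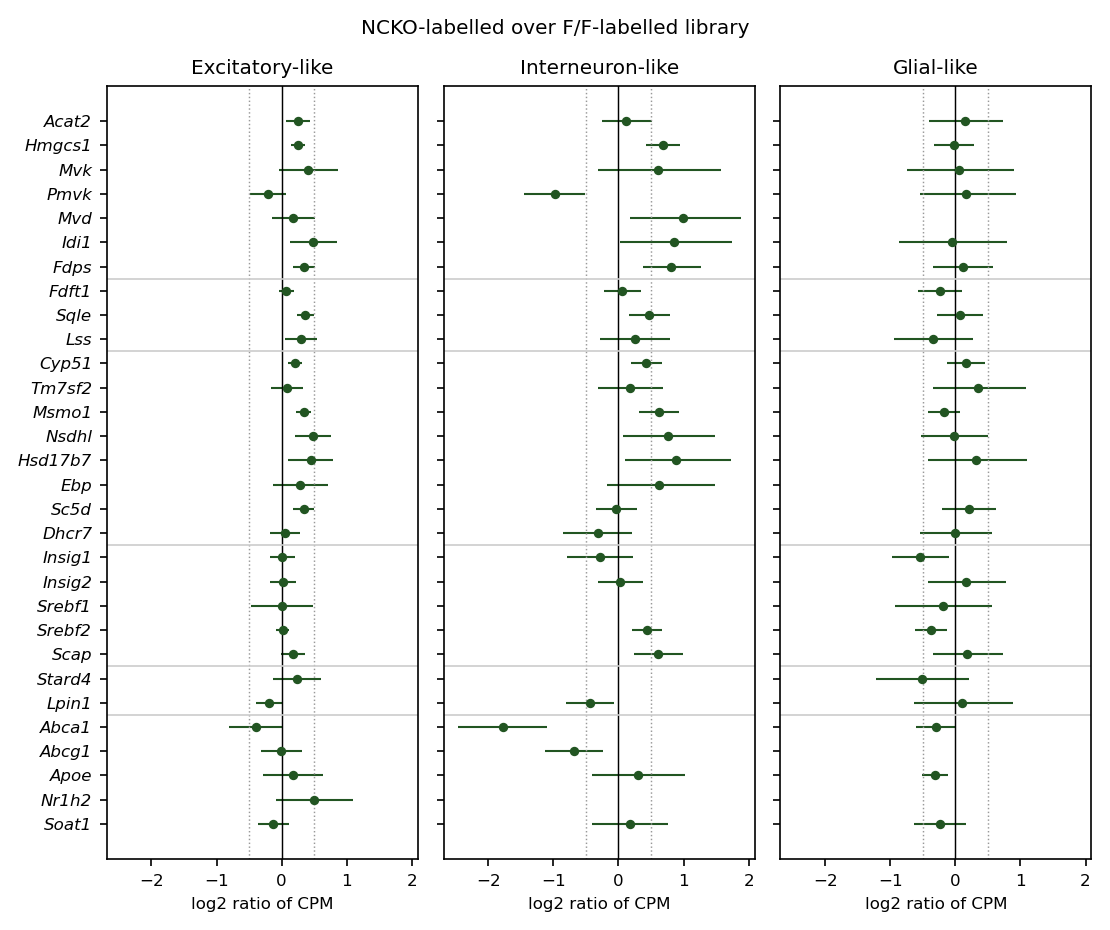
Log2 ratio of CPM (NCKO-labelled over F/F-labelled library, without pseudocount) for each gene with at least 50 UMIs in excitatory-like, interneuron-like and glial-like nuclei, with 95% counting intervals; dotted lines mark 0.5. Enzymes lie mostly right of 0 in both neuronal panels and on both sides of 0 in the glial panel, and Abca1 has the lowest point, in interneurons.

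The 2 interneuron classes shared part of this. In MGE-derived nuclei 3 of 22 measured members were past the fold upwards (4.81% of genes) and 3 downwards (4.24%). Upwards were Hmgcs1 at 57.0 and 90.1 CPM, Fdps at 19.3 and 33.8 CPM and Nsdhl at 6.71 and 13.5 CPM. Downwards were Pmvk at 25.6 and 14.8 CPM (a log2 ratio of -0.63, and of -0.35 with predicted doublets kept), Lpin1 at 38.2 and 23.1 CPM and Abcg1 at 31.9 and 16.8 CPM. In CGE-derived nuclei 7 of the 12 measured members were past the fold upwards (8.76% of genes). The interval left out 1 for 4 of these: Hmgcs1 at 50.5 and 87.2 CPM, Cyp51 at 70.2 and 118 CPM (a log2 ratio of 0.71, and of 0.09 after thinning to 1000 UMIs), Msmo1 at 35.1 and 74.7 CPM with a ratio of 2.13 (1.35 to 3.47), and Scap at 21.1 and 40.03 CPM. Fdft1 at 88.4 and 64.0 CPM and Acat2 at 33.7 and 24.0 CPM were the 2 measured members with log2 ratios below 0, -0.44 and -0.41, and both intervals held 1. Lpin1 in CGE-derived nuclei was at 37.9 and 44.5 CPM and did not share the lower value of the MGE-derived class. In striatal or LGE-derived neuron-like nuclei 1 of 23 measured members was past the fold upwards (4.73% of genes). This was Msmo1 at 56.2 and 83.7 CPM, a ratio of 1.49 (1.23 to 1.81).

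In glial-like nuclei as a whole the enzymes were level between the libraries. The intervals of the astrocyte-like and oligodendrocyte precursor-like classes also held 1. The enzymes' sum was 1170.0 CPM (1205 UMIs) in the F/F-labelled and 1178 CPM (2155 UMIs) in the NCKO-labelled library, a ratio of 1.01 (0.938 to 1.08). In astrocyte-like nuclei the ratio was 1.09 (0.997 to 1.20) and in oligodendrocyte precursor-like nuclei 0.994 (0.859 to 1.15). Radial glia-like nuclei, 57 of the 349 glial-like nuclei in the first library and 62 of the 640 in the second, had sums of 1148 and 1041 CPM. Of 26 measured members 13 had a log2 ratio above 0 (49.2% of all genes), and 0 passed the fold upwards (8.61% of genes) or downwards (7.56%). The upper end of the interval over all glia, 1.08, lies below the lower end of that in excitatory-like nuclei, 1.15, but whether the ratios differ between the classes was not tested. The median mitochondrial share was higher in the NCKO-labelled library in glia, 0.0792% against 0.126%, as it was in excitatory-like nuclei, 0.163% against 0.193%, and in interneurons, 0.192% against 0.221%. Srebf2 was at 227 CPM (234 UMIs) and 175 CPM (320 UMIs), a ratio of 0.770 (0.648 to 0.915). Insig1 was at 77.7 and 53.6 CPM, a ratio of 0.690 (0.508 to 0.939), and Apoe at 331 and 267 CPM, a ratio of 0.807 (0.702 to 0.930). Astrocyte-like nuclei were 176 of the 349 glial-like nuclei in the first and 350 of 640 in the second. Within them Apoe was at 576 and 530 CPM, Insig1 at 78.3 and 71.1 CPM and Srebf2 at 222 and 206 CPM. Their log2 ratios were -0.12, -0.13 and -0.10, nearer 0 than over all glia. In oligodendrocyte precursor-like nuclei Srebf2 was the only regulator measured, with a log2 ratio of -0.34. In astrocyte-like nuclei 1 of 18 measured members was past the fold upwards (10.1% of genes), Sc5d at 89.1 and 131 CPM. Its ratio was 1.47 (1.02 to 2.16), and its log2 ratio of 0.53 was 0.23 after thinning and 0.32 with predicted doublets kept. Intermediate progenitor-like nuclei had 2 of 10 measured members past the fold upwards (9.99% of genes). Abca1 was at 134 and 201 CPM and Apoe at 104 and 160 CPM. Their log2 ratios were 0.57 and 0.60, with intervals of the ratio of 1.08 to 2.11 and 1.05 to 2.26. The enzymes of these nuclei summed to 733 and 709 CPM. The log2 ratio of Apoe was 0.15 with predicted doublets kept.

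Among clusters of the 10 classes compared, the sum of the enzymes was higher in the NCKO-labelled library in 20 of the 24 clusters with at least 50 enzyme UMIs in each library, with ratios from 0.880 to 1.54. In 15 of these clusters the interval lay above 1, and in 0 it lay below 1. The 4 clusters with a ratio below 1 were 1 each of the intermediate progenitor-like, MGE-derived, oligodendrocyte precursor-like and astrocyte-like classes. The astrocyte-like clusters did not move together, with ratios of 0.912 (0.796 to 1.04), 1.29 (1.09 to 1.53) and 1.22 (0.965 to 1.55). All 8 upper-layer-, layer 5- and layer 6-like clusters were above 1. The MGE-derived cluster with the highest ratio, 1.54, was deeper than the other MGE-derived ones, at a median of 5926 UMIs. Its second-best class by marker score was upper-layer, at 0.58 against 1.60, and the part of this in its ratio was not tested.

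**Figure D5:**
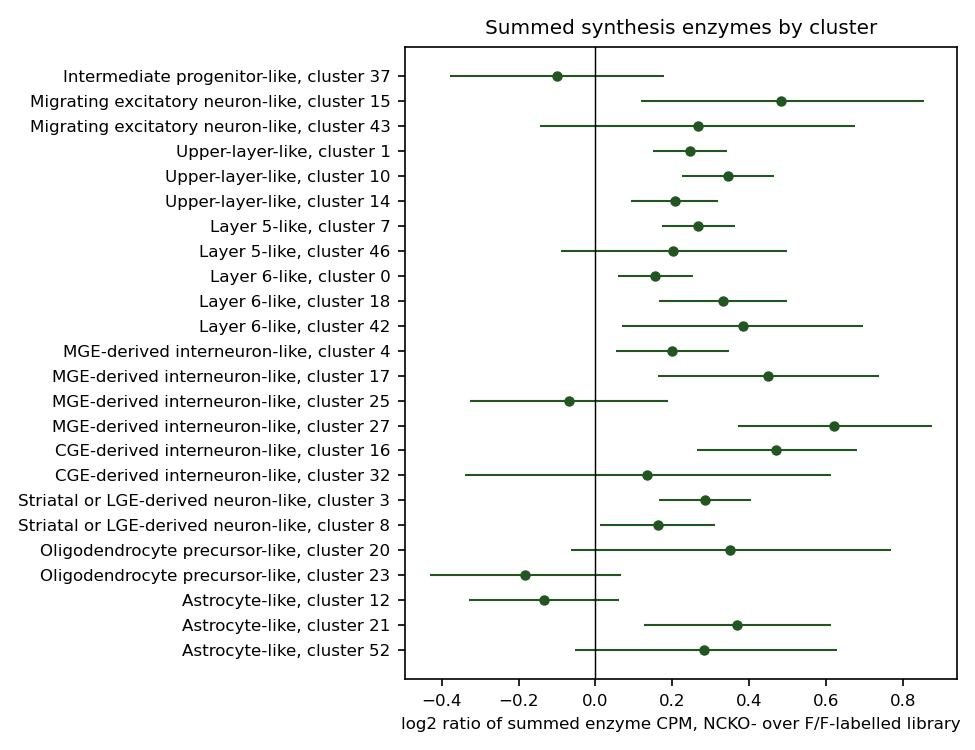
Log2 ratio of the summed enzyme CPM, NCKO-labelled over F/F-labelled library, in each cluster of the 10 classes with at least 50 enzyme UMIs in each library, with 95% counting intervals. Of 24 clusters 20 lie right of 0, and MGE-derived cluster 27 lies farthest right at a ratio of 1.54.

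A second list of 24 genes covers fatty acid enzymes driven by SREBP, SREBP processing, sterol uptake, transfer and turnover. In glia over excitatory-like nuclei, 10 of its 23 measured genes were higher by the fold in both libraries (23.5% of all genes), and 1 was lower (15%). Between the libraries, over all nuclei 13 of 24 had a log2 ratio above 0 and the median was 0.02, and in interneurons 8 of 21 were above 0 with a median of -0.07. In upper-layer-like nuclei 17 of 23 were above 0 (52.4% of all genes) with a median of 0.09. The highest ratios over all nuclei, picked after their values were seen, were of Fasn, the fatty acid synthase, at 12.1 and 18.4 CPM, a ratio of 1.52 (1.33 to 1.74), Scd2, a stearoyl-CoA desaturase, at 296 and 347 CPM, and Fads2, a fatty acid desaturase, at 75.6 and 88.8 CPM. The lowest were of Vldlr, a lipoprotein receptor, at 54.6 and 46.1 CPM, a ratio of 0.845, the sterol transporter Abcg4 at 15.3 and 13.0 CPM, and Cyp46a1, which hydroxylates cholesterol for its removal from the brain, at 10.3 and 8.88 CPM.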

How the data were processed

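Nuclear RNA of 2 libraries, 1 per genotype label, was counted by the authors using Cell Ranger, which the file headers give as version 6.1.0. Alignment to mm10 and the use of Seurat are from the submitters' processing notes. The deposited values are raw UMI counts of each gene in each barcode. The sources used here do not state the strand setting. Of 6477 and 10750 deposited barcodes with 30116311 and 50115162 UMIs, 10 and 19 were removed for fewer than 500 genes, and 1 and 0 for a mitochondrial share above 5%. Doublets were then called by likeness to simulated sums of nuclei, at 0.8% per 1000 barcodes, which removed 336 (5.19%) and 924 (8.60%). Nuclei were clustered on 2000 variable genes, without the genes studied and without cell-cycle, sex, mitochondrial and haemoglobin genes, in 30 components with 20 neighbours (leidenalg 0.10.2, resolution 1, then 0.5 within clusters). Clusters were named "like" a class from lists of marker genes, by a mean log2 score of at least 0.5, a lead of 0.1 and at least 3 markers 1.5-fold up; this naming rule was settled after the clusters were seen.

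A class was compared where both libraries held 100 or more of its nuclei. Its UMIs were summed in each library and scaled to UMIs per 1000000 (CPM; numpy 2.4.6, scipy 1.17.1). Levels have exact Poisson, ratios exact conditional binomial and shares Clopper-Pearson 95% intervals. No p-value was computed, since each label has 1 library. The scripts were tested on simulated data. The members and lists were chosen with earlier results of these data known. Members are given in full where a class had a log2 ratio at or beyond 0.5 in size with an interval that leaves out 1, or where classes differed by a log2 ratio of 1 in both libraries. Outside the members, Men1 and the 3 highest and 3 lowest genes of the second list were named. Alternatives changed the pseudocount, the UMI minimum, the doublet removal, the resolution, the depth per nucleus and the weights of clusters.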

Additional observations from a re-analysis of the deposited data

Results flagged for a closer look

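Srebf2, which encodes the transcription factor SREBP2, had ratios of opposite sign between the libraries in different classes. The log2 ratio, NCKO-labelled over F/F-labelled library, was 0.41 in interneuron-like nuclei and -0.37 in glial-like nuclei, and both counting intervals left out equality. In astrocyte-like nuclei alone, Srebf2 was at 222 and 206 CPM, a log2 ratio of -0.10, nearer 0 than over all glia. In oligodendrocyte precursor-like nuclei, where it was the only regulator measured, its log2 ratio was -0.34. With 1 library per label, the difference between the classes was not tested.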

How the results depend on the processing

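None of the 29 named ratios past the fold changed sign under the alternatives run. Of these, 19 fell under the fold with a pseudocount of 20 CPM and 13 with doublets kept, as did 4 of the 12 still measured after thinning. Medians near 0 did change sign: in glia that of the members ran from -0.10 to 0.03 and that of the enzymes from -0.01 to 0.09, and in excitatory-like nuclei that of Stard4 and Lpin1 from -0.02 to 0.01. Over all nuclei, 1 member in place of 0 passed the fold upwards with a pseudocount of 1 CPM. In interneurons, the 8 members past the fold upwards were 1 with a pseudocount of 20 CPM, 4 with a minimum of 100 UMIs, 5 with doublets kept and 5 after thinning to 1000 UMIs. The 20 members with a log2 ratio above 0 there were 13 with the minimum of 100 UMIs and 11 after thinning, which leave fewer genes measured. In glia, 1 member in place of 0 passed the fold upwards with a minimum of 20 UMIs and 1 after thinning. Downwards, 1 passed with a pseudocount of 1 CPM, 2 at resolution 2, 2 after thinning, and 1 with each cluster given its F/F share. Of the 13 above 0 in glia, 8 were left with the minimum of 100 UMIs and 5 after thinning. Between interneurons and excitatory-like nuclei, 1 member in place of 0 was higher in both libraries when only layered excitatory classes were used, and the 6 lower ones were 3 with a pseudocount of 20 CPM. Of 15 members higher in glia than in interneurons, 8 were counted after thinning. The log2 ratio of Abca1 in interneurons was -1.20, and -0.63 with a pseudocount of 20 CPM, -0.96 with doublets kept and -1.08 with weighted clusters. The cause of the changes that do not come from fewer measured genes was not tested. An alternative that added 7 unnamed excitatory clusters (1162 and 1698 nuclei) was chosen after seeing the data. No paired analysis was possible because each label has 1 library. Genes with few UMIs in a class have wide intervals, and a member under the minimum of UMIs was not measured there.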
